A study of Arabidopsis thaliana with 9 samples.

Results

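Line 348, a T-DNA insertion line of Arabidopsis thaliana, was compared with its control line C2S1 to find the transcripts that differ most between them. The comparison took 6 of the 9 arrays of the series, 3 of line 348 and 3 of control C2S1, by the line named in their labels, and the arrays of the third line were not used. All 22746 probe sets other than the Affymetrix controls were compared. A probe set is a group of short oligonucleotides that read 1 transcript on the Affymetrix ATH1 array.

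Line 348 carries a T-DNA knock-out mutation according to its labels. C2S1 is called a wild-type control in its titles, although its genetic variation label also speaks of a knock-out mutation. No label names the gene that is disrupted, so no targeted transcript could be examined first, and nothing says whether line 348 is 1 clone or several. Both lines were harvested as whole plants at growth stage 1.04 after 17 days at 21 C, on plates of 25 seeds, with 16 h light and 8 h dark each day. Total RNA was hybridised at 1 sample per array. The titles number the line 348 arrays 1, 1 and 3, so replicate numbers here follow the order of the samples. Nothing in the labels says that replicates are separate cultures, and the p-values therefore reflect a spread that may be technical.

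The series is titled as a study of epigenetic mutants. In plants, cytosine methylation and histone marks keep transposons, repeats and many inserted transgenes silent through cell divisions. A mutant that loses such a mark can release silenced loci, and nearby genes can change with them. T-DNA insertion itself disrupts the gene it enters, so an insertion line can also differ at single genes unrelated to silencing.

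The signals were of similar scale on every array. The 2% trimmed mean was 100.01 on each, and log2 signals correlated at r = 0.976 to 0.977 between line 348 arrays and at 0.979 to 0.982 between control arrays. Between a line 348 and a control array r was 0.977 to 0.979, so line 348 arrays were as close to control arrays as to each other, over probe sets that are not independent replicates. Of the marker genes of plant organs, 3 of 10 leaf genes could be read by name, RCA (Rubisco activase) and the antenna genes LHCB4.1 and LHCB4.2. Their summed signal was 12841 to 13808 units on line 348 arrays and 11882 to 13001 on control arrays. PYK10, a root beta-glucosidase and the 1 root gene read out of 7, had 2930 to 3386 units in line 348, against 3004 to 3470 for C2S1. CLV3, which marks a few cells of the shoot meristem, was at 0.869 units or less in line 348 and 3.41 or less in the control. Flower, pollen and seed markers were sought, but none was read by name. The ratio of 3' to 5' signal at GAPDH, which reflects RNA integrity, by one pair of control probe sets was 1.58 to 1.70 in line 348, against 1.79 to 1.97 for C2S1. By another pair it was 2.71 to 4.56 on line 348 arrays, against 3.70 to 4.17 on control arrays. Exact two-sided permutation p was 0.1 for the first pair, the smallest that 3 against 3 arrays allow, and 0.9 for the second. The part of RNA quality in the changes below was not tested.

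No probe set passed in this comparison. In limma, a linear model with moderated variances, 0 of 22746 probe sets (0.0%) had an adjusted p under 0.05, and the smallest adjusted p was 0.0799. An unadjusted p under 0.05 was reached by 1491 probe sets (6.55%), 743 higher (3.27%) and 748 lower (3.29%) in line 348. For 83.6% of probe sets the 95% confidence interval excluded a 2-fold difference, with a median reach of 0.432 to either side on the log2 scale. All log2 changes below are line 348 minus control on the scale of log2(signal + 5), which understates the change of dim transcripts. Words such as higher and lower describe the measured values only.

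Of the 22746 probe sets, 2747 (12.1%) had no overlap, with all 3 line 348 signals on one side of all 3 control signals. Were the arrays interchangeable between the lines, a share of 0.1 would be expected without overlap. The 2747 divided evenly, 1379 higher (6.06%) and 1368 lower (6.01%). At 1.5-fold or more 495 of them (2.18%) were left, 300 higher (1.32%) and 195 lower (0.857%). Of these, 63 probe sets (0.277%) were at least 2-fold apart, 47 higher (0.207%) and 16 lower (0.0703%). Most of these were dim. With the signal also required to lie above the array's 40th percentile, 20.6 to 22 units, on all 3 arrays of the higher group, 12 probe sets (0.0528%) were left, 9 higher (0.0396%) and 3 lower (0.0132%). At 1.5-fold the same count was 103 (0.453%), 64 higher (0.281%) and 39 lower (0.171%), of which 56 had exactly 1 named gene, 45 had none and 2 had several.

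**Figure D1:**
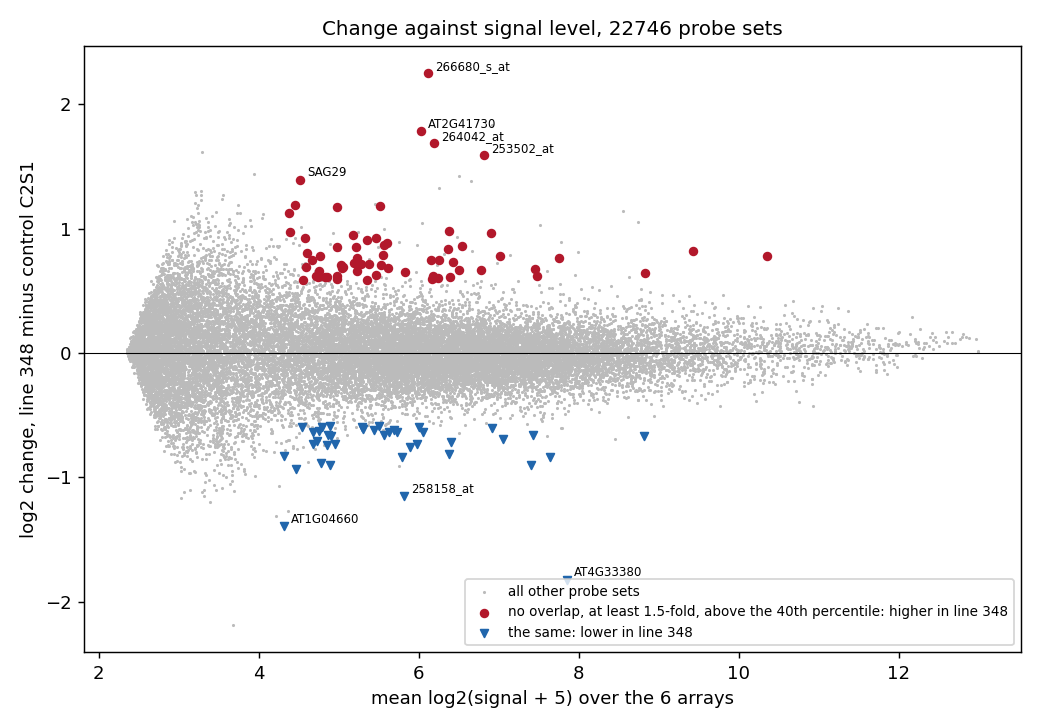
The log2 change of line 348 minus control C2S1 (vertical axis) is plotted against the mean of log2(signal + 5) over the 6 arrays (horizontal axis) for 22746 probe sets. Red circles and blue triangles mark the 64 higher and 39 lower probe sets without overlap, at least 1.5-fold apart and above the 40th percentile in the higher group, and the grey points spread most widely at low signal.

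The largest difference belonged to 266680_s_at, a probe set with no gene in the table used here. Its signals were 139.7, 152 and 148 units in line 348, against 21.4, 19.4 and 45.3 in the control. The line 348 arrays were close to each other and lay far above the control arrays, of which the third was the highest. The log2 change was 2.25 with SE 0.255 and limma adjusted p = 0.0799. Across the 15 alternative fits that held this probe set, limma adjusted p ran between 0.00271 and 0.694 and was under 0.05 in 4. The 4 include both filters by signal, which the arrays of the higher group alone can pass.

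Among named genes higher in line 348, the largest difference was at AT2G41730, a protein-coding gene read by probe set 260522_x_at. It had 90.2, 56.6 and 294 units in line 348, against 26.7, 28.1 and 36.05 in the control. All line 348 values were above the control, but they differed among themselves and the third array was far the highest. The log2 change was 1.78 with SE 0.486 and limma adjusted p = 0.621. Leaving out line 348 replicate 3 gave 1.13. The unnamed probe set 264042_at had the same order of line 348 arrays, with 132, 66.6 and 226 units in line 348, against 39.6, 29.9 and 38.6 in the control. Its log2 change was 1.69 with limma adjusted p = 0.511, and 1.28 without line 348 replicate 3.

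Probe set 253502_at, which has no named gene, had tight control arrays. It had 152, 177 and 258 units in line 348, against 62.1, 58.7 and 59.4 in the control, whose 3 arrays were nearly equal. Its log2 change was 1.59 with SE 0.178 and limma adjusted p = 0.0799. Of the alternative fits, 3 of 15 brought its limma adjusted p under 0.05, in a range between 0.00552 and 0.694. The 3 include both filters by signal.

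SAG29, also called SWEET15, encodes a sugar transporter of the SWEET family that is known from senescing leaves. Its signals were 24.6, 27.5 and 47.3 units in line 348, against 2.83, 22.6 and 7.87 in the control. The lowest line 348 array was close to the highest control array, and 2 control arrays were below the 40th percentile. The log2 change was 1.39 with SE 0.449 and limma adjusted p = 0.687, and it was 0.970 without control replicate 1 and 1.88 without control replicate 2. UGT73B4, a glycosyltransferase known from stress and defence responses, had 27.3, 25.6 and 31.8 units in line 348, against 17.1, 10.6 and 3.94 in the control. Its control signals were all below the 40th percentile, so the size of its log2 change, 1.19 with SE 0.333 and limma adjusted p = 0.622, rests on dim values.

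AT4G33560 and AT5G03090 are protein-coding genes without a role given here. They completed the named genes at least 2-fold higher, without overlap and above the 40th percentile on all 3 line 348 arrays. AT4G33560 had 72.97, 64.9 and 54.7 units in line 348, against 16.8, 21.3 and 43.4 in the control, a difference of 1.19 in log2 units (limma adjusted p = 0.56). AT5G03090 had 39.7, 53.2 and 36.1 units in line 348, against 18.6, 22.2 and 9.41 in the control, a difference of 1.18 in log2 units (limma adjusted p = 0.557). In both, the groups were apart and the control arrays differed among themselves by more than the line 348 arrays did in proportion. Of the higher probe sets that met the same limits of overlap and signal, 266034_at had the smallest change that still reached 2-fold. Its log2 change of 1.12 was 0.721 without control replicate 3. The next of this set, 251861_at, fell short of 2-fold with 0.98.

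**Figure D2:**
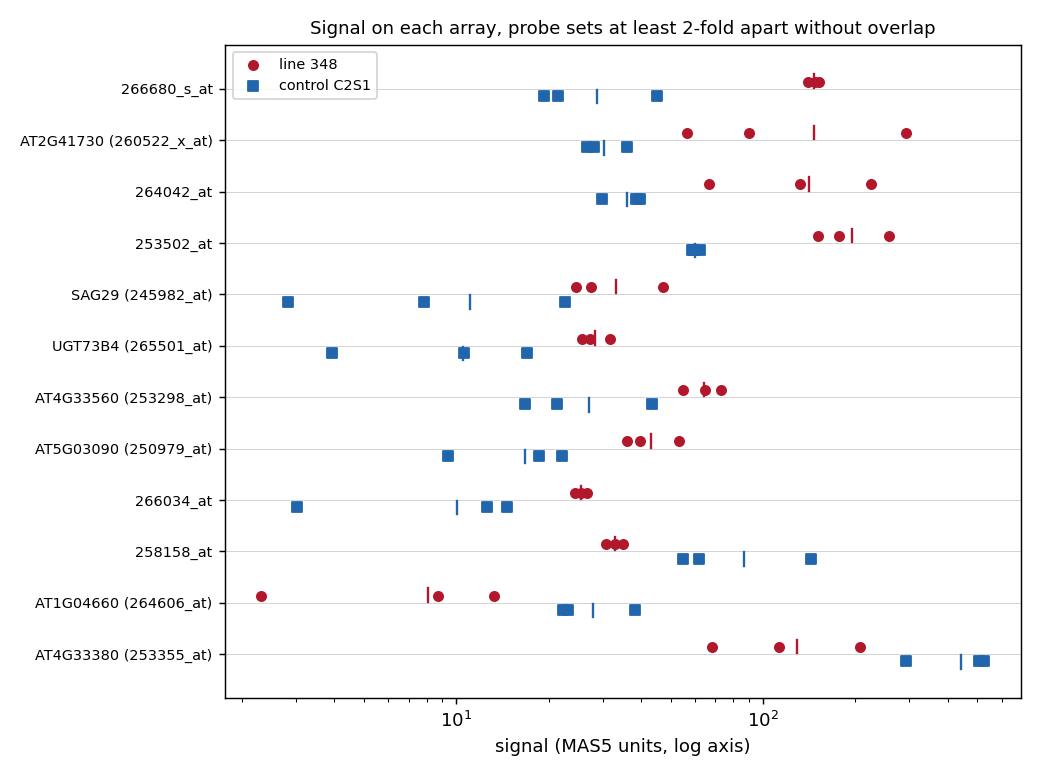
Signals (horizontal log axis, MAS5 units) are shown for each of the 3 line 348 arrays (red circles) and 3 control C2S1 arrays (blue squares). Short vertical lines mark the group means. The 12 probe sets shown were at least 2-fold apart without overlap and above the 40th percentile on all 3 arrays of the higher group. Line 348 lies above the control in the upper 9 rows and below it in the lower 3. Among the line 348 arrays, AT2G41730 and 264042_at spread most widely of the upper rows and AT1G04660 of the lower rows.

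On the lower side, AT4G33380, a protein-coding gene, differed most among the brighter probe sets. Its signals were 113, 207 and 68.2 units in line 348, against 293, 507 and 527 in the control. The highest line 348 array stayed below the lowest control array, and all 6 signals were well above the 40th percentile. The log2 change was -1.82 with SE 0.363 and limma adjusted p = 0.511, and with single arrays left out it ran between -2.22 and -1.45. AT1G04660, a glycine-rich protein gene, had 8.74, 13.3 and 2.32 units in line 348, against 22.2, 23.2 and 38.4 in the control. All its line 348 signals were below the 40th percentile. The log2 change was -1.39 with limma adjusted p = 0.616. The unnamed 258158_at had 34.9, 30.9 and 32.9 units in line 348, against 61.7, 55.03 and 143 in the control. Its log2 change of -1.15, with limma adjusted p = 0.621, was -0.742 without control replicate 3.

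The genes between 1.5-fold and 2-fold, and those above, were then described by what their products are known to do. Of the 56 named genes, 33 were higher and 23 lower. A role was given here to 31, and 25 had none. The roles were assigned after the values were seen, and genes beyond the first 15 in each direction were also named then. The counts below are therefore descriptions of a chosen set. How many genes of each role the array measures was not counted. By the same limits of overlap, fold and signal, 0.281% of all probe sets were higher and 0.171% lower.

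Genes placed with the cell wall and secreted proteins numbered 10, of which 8 were higher and 2 lower, in a set that was itself 33 higher and 23 lower. How many such genes the array measures was not counted, and the 1 wall family collected by name, expansins with xyloglucan and pectin enzymes, had 5.9% of 34 probe sets without overlap, against 12.1% of all. AT3G16670, which encodes a secreted pollen allergen-like protein, was the brightest of them, with 1125, 686 and 983 units in line 348, against 570.3, 433 and 555 in the control. Every line 348 array was above every control array, at a log2 change of 0.82, SE 0.182 and limma adjusted p = 0.548. AT5G10130, of the same family, had 47.99, 66.2 and 48.5 units in line 348, against 19.9, 35.9 and 40.8 in the control, a difference of 0.70 in log2 units (limma adjusted p = 0.707). Without control replicate 1 it was 0.439.

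AT2G41800, a cell wall protein with a domain named only by its unknown function, had 68.7, 63.7 and 46.5 units in line 348, against 27.03, 35.7 and 27.9 in the control. Its log2 change was 0.87 with SE 0.194 and limma adjusted p = 0.548, and leaving out single arrays moved it between 0.765 and 1.02. AT5G09480, a hydroxyproline-rich glycoprotein gene, had 62.02, 56.9 and 51.6 units in line 348, against 25.3, 31.9 and 35.5 in the control. The arrays within each group were close, and the log2 change was 0.79 with SE 0.173 and limma adjusted p = 0.543. AT3G28550, an extensin-like gene, had 38.6, 61.4 and 35.3 units in line 348, against 19.4, 33.4 and 20.5 in the control, so that its groups were only just apart, with limma adjusted p = 0.701.

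GH9C1, an endoglucanase that acts on wall glucans, had 34.00, 29.6 and 21.4 units in line 348, against 13.8, 19.97 and 10.9 in the control, where all 3 signals were dim. Its log2 change was 0.75 with limma adjusted p = 0.697. The multicopper oxidase-like gene sks16 and the pectin methylesterase or invertase inhibitor-like gene AT1G23205 had log2 changes of 0.70 and 0.59, each with 2 dim control arrays. The 2 lower genes of the group were AT1G04660, given above, and AT1G65870, of the dirigent family of lignan and lignin coupling proteins. AT1G65870 had 13.9, 19.6 and 22.1 units in line 348, against 35.2, 31.6 and 28.8 in the control, a difference of -0.66 in log2 units (limma adjusted p = 0.687).

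Class III peroxidases, secreted haem enzymes that cross-link or loosen the wall, were represented by 3 of these 56 genes, all among the 33 higher. The number of class III peroxidases measured was not counted. Of all probe sets, 0.281% were higher without overlap, at least 1.5-fold apart and above the 40th percentile in the higher group. AT5G17820 had 99.9, 78.9 and 85.1 units in line 348, against 35.9, 65.9 and 53.04 in the control, a difference of 0.75 in log2 units (limma adjusted p = 0.622). AT1G30870 had 62.6, 53.5 and 36.7 units in line 348, against 33.5, 32.5 and 26.02 in the control, a log2 change of 0.63. AT2G35380 had 40.5, 32.1 and 20.9 units in line 348, against 15.8, 18.9 and 19.5 in the control, a log2 change of 0.61. The third line 348 array was the lowest in the last 2 genes and lay close to the control.

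Genes tied to iron deficiency were represented by 2 of the 56 genes, both among the 33 higher, placed together after their values were seen. The number of such genes measured was not counted, and 0.281% of all probe sets were higher by the same limits. AT3G12900 encodes a hydroxylase that makes the iron-mobilising coumarin fraxetin. It had 30.3, 40.9 and 71.5 units in line 348, against 18.21, 26.5 and 23.8 in the control, a log2 change of 0.85 with SE 0.291 and limma adjusted p = 0.694. Without line 348 replicate 3 it was 0.544. AT1G74770 encodes a ubiquitin ligase that acts in the iron deficiency response of roots. It had 80.3, 96.1 and 89.7 units in line 348, against 59.05, 63.95 and 47.5 in the control, a log2 change of 0.61 with SE 0.144 and limma adjusted p = 0.557. Of the list of 12 iron deficiency genes, 2 were measured by name and neither separated the groups. The transcription factor BHLH101 had 7.52, 22.4 and 67.9 units in line 348, against 19.1, 18.22 and 2.08 in the control. PYE, another transcription factor of iron homeostasis, had 31.7, 30.4 and 56.3 units in line 348, against 33.2, 21.7 and 36.1 in the control. In AT3G12900, BHLH101 and PYE the third line 348 array was the highest.

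**Figure D3:**
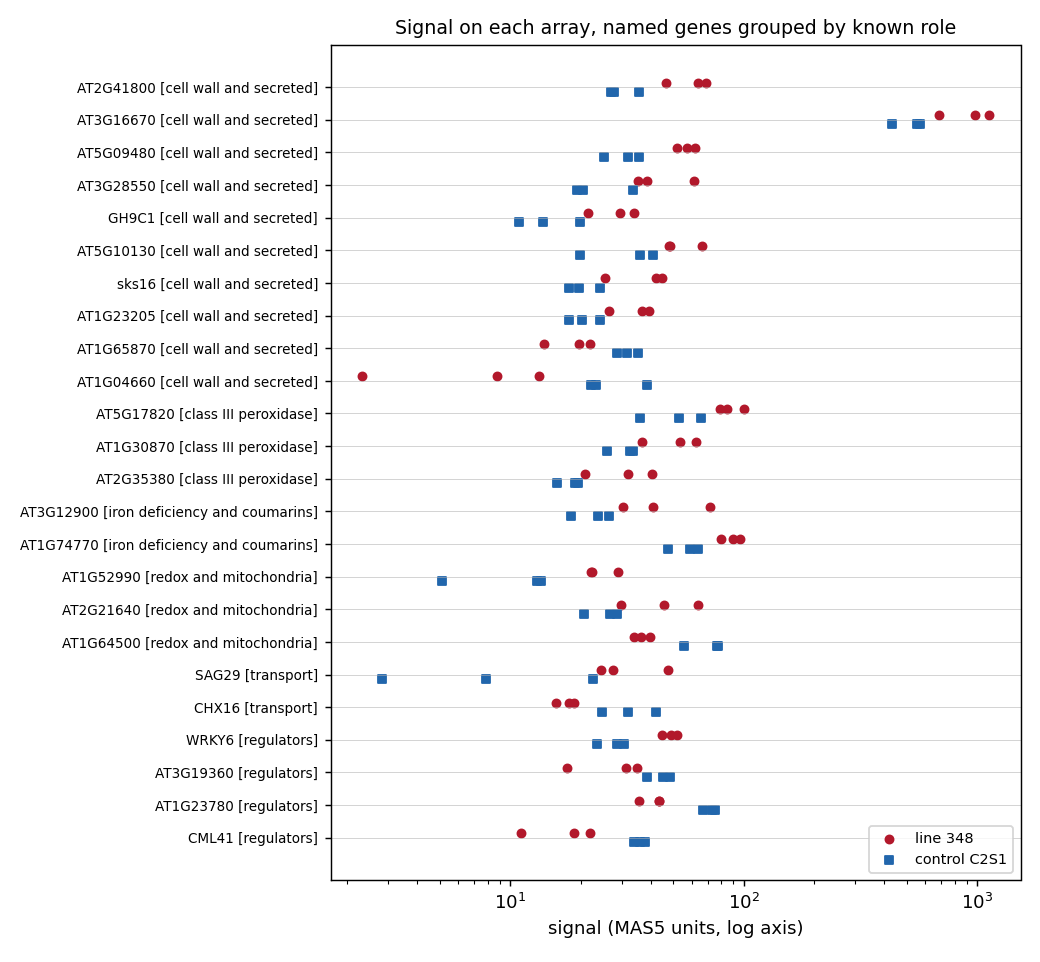
Signals (horizontal log axis, MAS5 units) on each of the 3 line 348 arrays (red circles) and 3 control C2S1 arrays (blue squares) are shown for 24 named genes without overlap, grouped by role. The roles were assigned after the values were seen. Of the 10 cell wall and secreted protein genes 8 are higher in line 348 and of the 3 class III peroxidases all are, in a named set of 33 higher and 23 lower genes.

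Regulators and signalling genes were 1 higher and 3 lower. WRKY6, a transcription factor known from senescing leaves, had 48.97, 51.7 and 44.8 units in line 348, against 23.57, 28.6 and 30.7 in the control, a log2 change of 0.72 with SE 0.171 and limma adjusted p = 0.557. CML41, a calmodulin-like calcium sensor, had 11.2, 18.7 and 21.9 units in line 348, against 37.6, 35.8 and 33.8 in the control. The control arrays were tight, and 2 line 348 arrays were dim, with a log2 change of -0.90 and limma adjusted p = 0.616. AT1G23780, an F-box protein gene, had 43.3, 43.4 and 35.5 units in line 348, against 67.1, 75.1 and 73.2 in the control, a log2 change of -0.75 with SE 0.142 and limma adjusted p = 0.511. The CCCH zinc finger gene AT3G19360 had a difference of -0.61 in log2 units (limma adjusted p = 0.746), and -0.356 without line 348 replicate 2.

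Redox genes divided. AT1G64500, a glutaredoxin family gene, had 39.8, 33.8 and 36.1 units in line 348, against 77.7, 76.8 and 55.4 in the control, a log2 change of -0.84 with SE 0.17 and limma adjusted p = 0.511. AT2G21640, a gene known as a marker of oxidative stress in mitochondria, had 45.7, 29.7 and 63.7 units in line 348, against 26.8, 20.7 and 28.6 in the control, a difference of 0.71 in log2 units (limma adjusted p = 0.72). AT1G52990, a thioredoxin family gene, had a log2 change of 0.97 over dim control signals of 5.09 to 13.5 units. Of the transporters, SAG29 was given above, and the cation/proton exchanger CHX16 had 18.7, 15.7 and 17.8 units in line 348, against 31.9, 24.8 and 42.2 in the control, a difference of -0.74 in log2 units (limma adjusted p = 0.659).

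Enzymes of sugar conjugation, lipid and one-carbon metabolism were 3 higher and 4 lower. AT1G73600, a methyltransferase of phosphocholine synthesis, had 502, 544 and 656 units in line 348, against 231, 413 and 488 in the control, a difference of 0.64 in log2 units (limma adjusted p = 0.729). Its highest control array was close to its lowest line 348 array, and without control replicate 1 the difference was 0.325. AT2G38660, of the folate interconversion enzymes, had 28.3, 26.4 and 35.8 units in line 348, against 49.3, 42.8 and 54.9 in the control, a difference of -0.62 in log2 units (limma adjusted p = 0.644). The lipase-like gene AT5G37710 and the long-chain alcohol oxidase-like gene AT4G19380 had log2 changes of -0.63 and -0.73.

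The most precise of the named differences on the lower side was AT4G34630, a protein-coding gene without a role given here. It had 140.4, 139.5 and 119 units in line 348, against 198, 213 and 226 in the control, a log2 change of -0.66 with SE 0.102 and limma adjusted p = 0.331, and leaving out single arrays moved it between -0.709 and -0.582. AT4G16840 was similarly tight, with 36.4, 37.3 and 38.8 units in line 348, against 58.9, 58.7 and 65.4 in the control, a difference of -0.63 in log2 units (limma adjusted p = 0.543). AT1G73120 had 152, 143 and 207 units in line 348, against 80.1, 113 and 91.4 in the control, a log2 change of 0.78 with SE 0.168 and limma adjusted p = 0.511. AT5G60530, a gene related to late embryogenesis abundant proteins, had a log2 change of 0.92 over 3 dim control signals. AT5G08630, AT5G49800 and the pseudogene AT3G21020 were dim on all 3 line 348 arrays, and AT2G42920 on 1, with log2 changes of -0.71, -0.63, -0.82 and -0.73. For AT2G42920 and AT3G21020 the 95% confidence interval included 0. The value for AT3G21020 was -0.382 without line 348 replicate 3, and that for AT2G42920 was -0.298 without line 348 replicate 1.

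**Figure D4:**
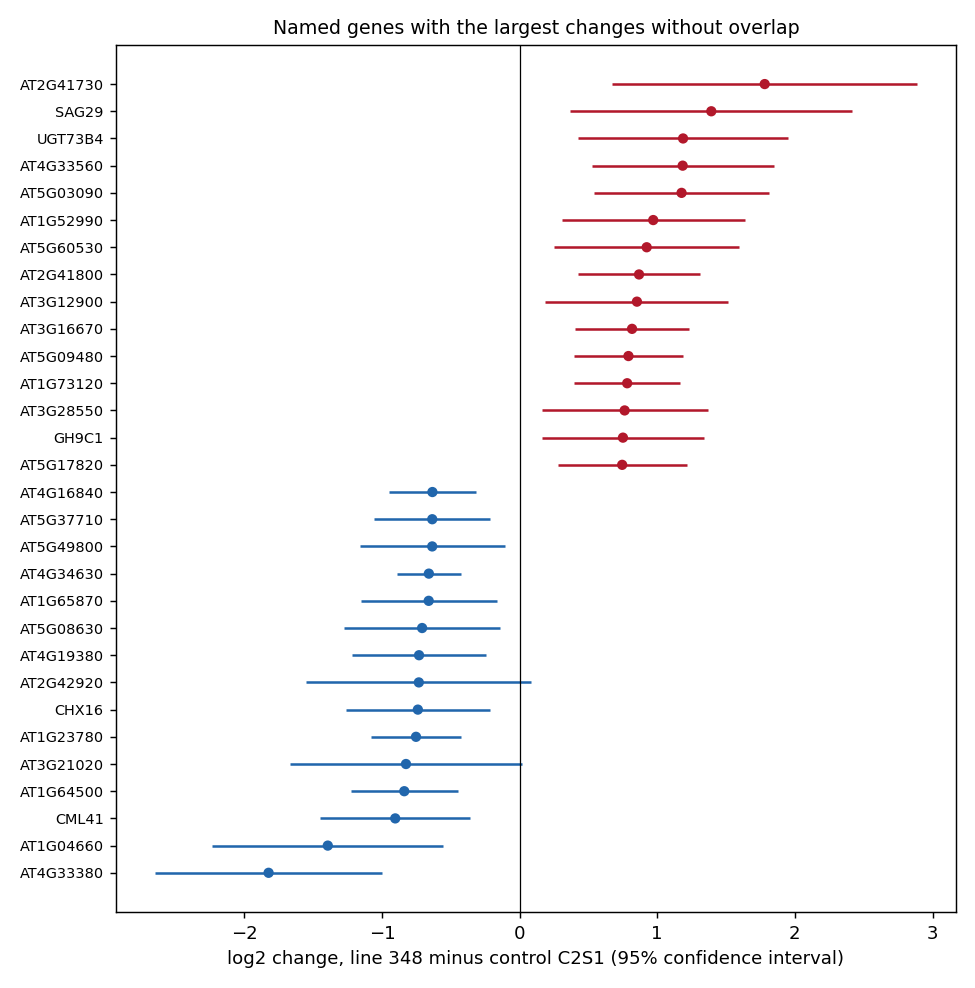
Points give the log2 change of line 348 minus control C2S1 and lines its 95% confidence interval from limma. Shown are the 15 named genes per direction with the largest changes among those without overlap and with no dim signal in the higher group. The intervals of AT2G42920 and AT3G21020 reach 0, and none of the 30 genes had a limma adjusted p under 0.05.

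Other unnamed probe sets had small but tight differences. 265321_at had 152, 144 and 138 units in line 348, against 259, 286 and 243 in the control, a log2 change of -0.84 with SE 0.0925 and limma adjusted p = 0.0799. It was under 0.05 in 3 of 15 alternative fits, both filters by signal among them, in a range between 0.0247 and 0.694. 245276_at had 118, 139 and 102 units in line 348, against 206, 227 and 247 in the control, a difference of -0.90 in log2 units (limma adjusted p = 0.239). On the higher side, 259553_x_at had 206, 212 and 229.6 units in line 348, against 132, 132 and 136 in the control, a log2 change of 0.67 with SE 0.0848 and limma adjusted p = 0.143. 246511_at had 183, 176 and 182 units in line 348, against 119, 121 and 117 in the control, a difference of 0.58 in log2 units (limma adjusted p = 0.239). In each of these 4 the gap between the groups was wider than the range of the arrays within either group. The unnamed 254550_at, with 159.5, 139 and 189 units in line 348 and 70.6, 88.4 and 83.5 in the control, had a difference of 0.96 in log2 units (limma adjusted p = 0.239).

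The extreme arrays were spread over the replicates. Among the 64 higher probe sets, line 348 replicates 1, 2 and 3 were the highest array in 22, 17 and 25 cases. Control replicates 1, 2 and 3 were the lowest in 30, 12 and 22 of these. On the lower side, the lowest line 348 array was replicate 1, 2 or 3 in 12, 11 and 16 of 39. The lower group was dim on all 3 arrays for 11 of the 64 higher and 7 of the 39 lower probe sets, and on no array for 33 and 21.

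Probe sets without overlap were found at every signal level. Of the dimmest of 5 equal classes by mean signal, 266 were higher and 199 lower of 4550, with a median absolute log2 change of 0.19 over the class. Of the brightest class, 327 were higher and 356 lower of 4549, with a median absolute log2 change of 0.097. The share without overlap rose from 10.22% in the dimmest class to 15.01% in the brightest. The second dimmest class had 289 higher and 183 lower, and the second brightest 255 higher and 355 lower. By chromosome of the gene in the TAIR10.1 annotation the share without overlap was 10.66% to 12.03% on chromosomes 1 to 5, against 12.1% of all probe sets. Among plastid-encoded genes it was 4.35% of 69 probe sets, 3 higher and 0 lower. The line 348 mean was higher for 56 of the 69, against 50.3% of all probe sets. The median log2 change of the 69 was 0.089, against 0.001 over all. Annotated pseudogenes, a class that can hold remnants of transposons, had 68 higher and 42 lower of 923 probe sets without overlap, which is 11.92% and near the share of all probe sets. Their median log2 change was 0.025, against 0.001 over all.

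The pathway lists gave few readable members, and none of these passed. Of 27 genes of DNA methylation and silencing, only the DNA demethylase DME was read by name, by 3 probe sets with overlapping groups and log2 changes of -0.04, 0.32 and 0.09. MET1, DDM1, CMT3, SAHH1 and ROS1 were sought, but no probe set with 1 gene carried their names. They may be among the probe sets without a named gene. Of 8 auxin and shade genes 2 were measured. GH3.3, an enzyme that conjugates auxin to amino acids, had 100.4, 135 and 147 units in line 348, against 80.3, 80.5 and 96.8 in the control. The groups did not overlap, with a log2 change of 0.53, SE 0.154 and limma adjusted p = 0.644. The auxin repressor IAA29 had a log2 change of -0.18 with overlapping groups.

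Of 8 touch and early stress genes 2 were measured. CML38, a calmodulin-like protein of wounding and low-oxygen responses, had 152, 85.8 and 128 units in line 348, against 46.4, 35.2 and 126 in the control. Control replicate 3 lay among the line 348 arrays, and the log2 change was 0.94 with overlapping groups. STZ, a zinc finger repressor of stress responses, had a log2 change of -0.01. The clock gene GI, the cytokinin response regulators ARR15 and RR16, the cold genes LTI30, COR47 and COR15A, the jasmonate-related PDF1.2 and THI2.1 and the senescence factor WRKY53 also overlapped, with log2 changes between -0.33 and 0.34. In the list of 12 flavonoid and anthocyanin genes, 3 were measured. AT4G14090, an anthocyanin glucosyltransferase, had dim signals without overlap, 6.98 to 8.99 units in line 348, against 3.27 to 6.17 for C2S1, while DFR and UGT78D2 overlapped. No gene of the salicylate, phosphate, nitrate and heat lists was read by name.

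Gene families were collected by their names in the gene table. UDP-glycosyltransferases had 52 probe sets, of which 4 were higher and 2 lower without overlap, a share of 11.5%. Cytochrome P450 enzymes had 29, of which 0 were higher and 3 lower, a share of 10.3%. Expansins, xyloglucan and pectin enzymes had 34, of which 2 were higher and 0 lower, a share of 5.9%. These shares lie near or below the 12.1% of all probe sets, and the median log2 changes of the 3 families were 0.025, 0.023 and -0.014.

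Smaller families held single genes with tight values. Glutathione S-transferases, which detoxify reactive compounds, had 1 higher and 1 lower of 13 probe sets without overlap, a share of 15.4% against 12.1% of all probe sets. GSTU16 had 78.2, 64.7 and 78.2 units in line 348, against 115, 111 and 112 in the control, a log2 change of -0.58 with SE 0.114 and limma adjusted p = 0.511. GSTU26 had 187, 181 and 171 units in line 348, against 158, 120.5 and 133 in the control, a difference of 0.39 in log2 units (limma adjusted p = 0.644). These tau-class enzymes thus lay on opposite sides.

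The peroxidases with a family name had 2 higher and 1 lower of 9 probe sets without overlap, a share of 33.3% against 12.1% of all. The higher ones were SAPX and TAPX, the stromal and thylakoid ascorbate peroxidases of the chloroplast. SAPX had 325, 333 and 374 units in line 348, against 248, 276 and 284 in the control, a log2 change of 0.35 with SE 0.0912 and limma adjusted p = 0.616. TAPX had 237, 260.3 and 221 units in line 348, against 212, 187 and 185 in the control, a difference of 0.29 in log2 units (limma adjusted p = 0.688). Both sets of arrays were apart, by less than 1.5-fold. WRKY47, a transcription factor, had a log2 change of -0.31 and the wall enzyme XTH16 of 0.24, both without overlap. The heat shock protein gene Hsp70-2 had 97.5, 94.4 and 89.6 units in line 348, against 53.9, 83.7 and 70.6 in the control, a log2 change of 0.43 that was 0.271 without control replicate 1.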

How the data were processed

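The authors deposited 1 linear intensity per probe set and array, and the submitters' processing notes name MAS5 and GCOS. Software versions: not given in the sources used here. A genome build is likewise unstated, and the authors' scaling was kept. Detection calls were not used, so a low signal may lie at background, and a signal at or below the array's 40th percentile is called dim.

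The 64 Affymetrix control probe sets were left out, and none of the other 22746 was filtered. Names came from the given probe table and the RefSeq gene table (TAIR10.1): 13513 probe sets had 1 gene, of which 77 had no RefSeq match, 503 had several and 8730 had none named. Probe sets ending in _s_at or _x_at can read related genes.

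Values were put on the scale of log2(signal + 5). The 6 arrays were fitted in R 4.3.3 with limma 3.58.1, an intensity trend, 4 residual and 4.55 prior degrees of freedom, and Benjamini-Hochberg adjustment over all probe sets. The code was tested on simulated data. The number of arrays limits the precision, with a median SE of 0.189.

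Genes named were all called probe sets, then up to 15 per direction with 1 gene and 5 with none, without overlap, at least 1.5-fold apart and above the 40th percentile in the higher group. Up to 4 members per pathway list and 3 per family followed, if without overlap and at an unadjusted p under 0.05. DDM1, MET1, CMT3, SAHH1 and ROS1 were to be named as well, but none was read by name. Dim probe sets, the 10 smallest p-values, other measured members of the pathway lists and further genes with a role were named once their values had been seen. The members and lists were chosen with earlier results of these data known. The gene table has no descriptions, so families were matched on symbols and synonyms.

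Alternatives were quantile normalization, median centring, pseudocounts of 1 and 20, filters at the 40th and 60th percentile, restriction to 1-gene probe sets, a fit lacking the intensity trend, weights per array, the title number as a block, and each array left out.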

Additional observations from a re-analysis of the deposited data

How the results depend on the processing

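The count of probe sets at a limma adjusted p under 0.05, 0 in the comparison as reported, was 3 with a pseudocount of 1, 6 with the filter at the 40th percentile, 7 with the filter at the 60th percentile and 0 to 3 with 1 array left out, where the 3 came without control replicate 3 and were 266680_s_at, 260869_at and 263096_at. It was 0 under the other alternatives run, with 819 to 1697 at an unadjusted p under 0.05. The filters test fewer probe sets, 13836 and 9272, and the cause of the other moves was not tested. They keep a probe set above the percentile on at least 3 of the 6 arrays. The arrays of the higher group alone can therefore admit it, and a call under a filter is not independent of the group difference. Those called under the filters were the unnamed 266680_s_at, 253502_at, 251861_at, 254550_at and 259553_x_at, higher, and 265321_at and 245276_at, lower. Counts at an unadjusted p under 0.05 were 756 at the 60th percentile and 819 with only 1-gene probe sets, both with fewer tested. Probe sets without overlap numbered 1309 and 1549 there, and 4672 to 5602 with 1 array left out, since fewer arrays overlap less often. Those also at least 2-fold apart, 63 as reported, numbered 459 with a pseudocount of 1, 6 with a pseudocount of 20, 12 and 4 with the filters, 41 with only 1-gene probe sets and 114 to 169 with 1 array left out.

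All 68 named probe sets kept their direction in the 1021 fits of alternatives that held them, and 7 of them passed the threshold in at least 1, all without a gene name. By the numbers in the titles, the deviations of same-numbered arrays of the 2 lines correlated at r = 0.05, -0.015 and 0.028. In sample order the pairs had r = 0.05, 0.034 and 0.028, and the other pairs between the lines -0.034 to 0.002. With the title number as a block, 0 probe sets were called and 1195 had an unadjusted p under 0.05. Title number 2 belongs to 1 control array only, which then does not inform the difference. A block by sample order was not fitted. No alternative moved the median of all probe sets by over 0.1 on the log2 scale. Dim signals and the 3 arrays per line both limit the comparison, and the limits were not ranked.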

Other observations

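The smallest unadjusted limma p of all 22746 probe sets belonged to AT4G04410, annotated as a pseudogene. It is dim and lies outside the 103 brighter probe sets. Its signals were 2.35, 0.497 and 0.400 units in line 348, against 22.8, 25.3 and 19.3 in the control. The log2 change was -2.18 with SE 0.238 and limma adjusted p = 0.0799. The control signals lay around the 40th percentile and the line 348 signals far below it, on all 3 arrays. Across its 14 alternative fits the limma adjusted p ran between 0.0501 and 0.694 and was under 0.05 in none.

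Other dim transcripts were higher in line 348. AT4G36700 had 9.01, 9.48 and 19.6 units in line 348, against 0.562, 0.485 and 0.681 in the control, a difference of 1.62 in log2 units (limma adjusted p = 0.414). The pseudogenes AT1G47465 and AT2G05950 had log2 changes of 1.295 and 1.27, each with all line 348 arrays above all control arrays. IAA33, an auxin-responsive family gene, had 7.17, 12.04 and 5.66 units in line 348, against 0.464, 2.12 and 0.727 in the control, a difference of 1.10 in log2 units (limma adjusted p = 0.548). In all 4 the groups were apart, yet every signal was below the 40th percentile, so these values may lie at background.

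Dim transcripts lower in line 348 included AT4G08270, with 0.581, 0.466 and 1.01 units in line 348, against 7.73, 7.34 and 6.89 in the control, a log2 change of -1.12 with SE 0.186 and limma adjusted p = 0.439. AT1G23690 had a log2 change of -1.12. AT5G39520, dim on all 3 line 348 arrays and on 1 control array, had a log2 change of -1.27. It had 12.5, 2.43 and 13.1 units in line 348, against 16.6, 23.5 and 48.3 in the control.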
